A study of Rattus norvegicus with 12 samples.

Results

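Anterior pituitary RNA of male Ept1 congenic rats was compared with that of male Ept6 congenic rats, all of them treated with the synthetic estrogen diethylstilbestrol (DES). The comparison used the 3 arrays labelled Ept1 and DES-treated and the 3 labelled Ept6 and DES-treated, which are 6 of the 12 arrays of the series. Ept1 carries a segment of chromosome 6 from the COP rat strain, Ept6 carries a COP segment of chromosome 3, and both segments lie on the genetic background of the ACI strain. Rats of both lines received 5 mg DES in a silastic implant at 9 weeks of age, were killed at 21 weeks, after 12 weeks of DES, and were injected with BrdU at 50 mg/kg, a label of DNA synthesis, 4 h before the end. The same holds for the Ept2 (COP segment on chromosome 3) and Ept9 (COP segment on chromosome 10) lines, whose 6 arrays are given beside the comparison. Neither sham-treated rats nor rats of the ACI strain were among the arrays analysed here, so the values say how both lines differ under DES and not how either responded to it. The labels conflict on whether the 3 arrays of a line are 3 biological replicates or come from fewer, and some of the spread behind the p-values may be technical.

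Estrogens act on lactotrophs, the prolactin-secreting cells of the anterior pituitary, through the estrogen receptor, and sustained treatment leads to lactotroph hyperplasia. ACI rats are highly susceptible to this growth and COP rats less so. A congenic line replaces a chromosome segment of one strain by that of another, so that a gene that differs between congenic lines may lie inside a segment, may respond to a gene in a segment, or may lie in donor genome carried elsewhere. An array probe set is a group of short probes to 1 transcript, and its signal can also differ between strains where a probe sequence differs. In bulk tissue, fewer cells of a type and less RNA per cell cannot be told apart.

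In total, 31042 probe sets were compared after control probe sets were left out. Every array had a trimmed mean signal of 500, so that signals were on 1 scale. Differences are Ept1 minus Ept6 on the scale of log2(signal + 16), which understates the change of dim probe sets, and a probe set was called when limma's adjusted p was under 0.05. Correlations of the arrays were 0.969 to 0.970 within Ept1, 0.966 to 0.967 within Ept6 and 0.966 to 0.968 between the lines. The 3′ minus 5′ log2 signal of the *Gapdh* control probe sets, which grows as RNA is shortened, was 0.25 ± 0.007 in Ept1 and 0.14 ± 0.059 in Ept6 (SD, n = 3 each), and the ranges did not overlap (exact permutation test, two-sided p = 0.1, the smallest that 3 against 3 arrays allow). That of the beta-actin controls was 1.69 ± 0.098 in Ept1 and 1.59 ± 0.12 in Ept6 (SD, n = 3 each, exact permutation test, p = 0.3). For the hexokinase controls it was 0.99 ± 0.39 in Ept1 and 0.94 ± 0.086 in Ept6 (SD, n = 3 each, exact permutation test, p = 0.9). The part of RNA quality in the differences below was not tested.

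The pituitaries of the Ept1 and Ept6 lines gave very similar profiles. Of the probe sets compared, 86.1% differed by less than 0.5 on the log2 scale, and the median difference was −0.01. Only 3 probe sets were called (0.00966% of those tested), 1 higher and 2 lower in Ept1. At an unadjusted p under 0.01 there were 540 probe sets (1.74%), 198 higher and 342 lower in Ept1, where 1% of the probe sets is 310. In 3560 probe sets (11.5%) the 3 Ept1 arrays did not overlap with the 3 Ept6 arrays. They lay above them in 1657 (5.34%) and below them in 1903 (6.13%). Full separation of 3 against 3 arrays has a two-sided exact permutation p of 0.1. The share of 11.5% is thus near that of arrays without any difference, and a lack of overlap is a description only. The median standard error of a difference was 0.14 among probe sets with a mean signal of 100 or more in the higher line, and these values set the size of difference that 3 arrays per line could resolve.

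**Figure D1:**
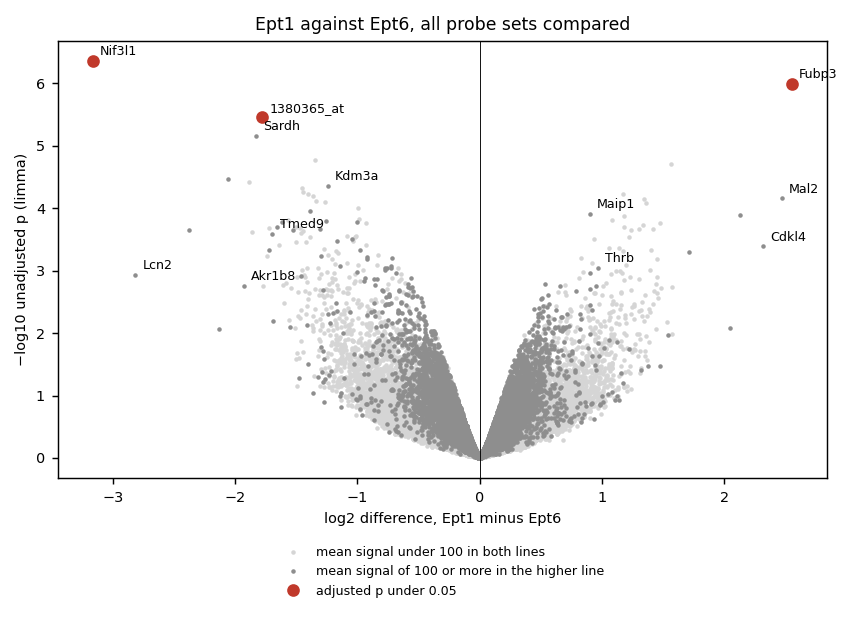
Log2 difference of every probe set compared, Ept1 minus Ept6 (horizontal axis), against the −log10 of the unadjusted limma p (vertical axis), with 3 arrays per line. The 3 called probe sets, *Nif3l1*, *Fubp3* and 1380365_at, are large red points, and most of the wide but uncalled differences belong to dim probe sets (light grey).

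The called gene with the larger difference was *Nif3l1*, a conserved gene named for its likeness to yeast NIF3 and located on chromosome 9, where the labels place no segment of either line. Its probe set 1384207_at had signals of 56.8, 64.1 and 76.7 in Ept1, against 736.6, 713.3 and 695.3 in Ept6. *Nif3l1* was thus 8.97-fold lower in Ept1 on the log2(signal + 16) scale (log2 difference −3.17, SE 0.13, adjusted p = 0.0134 with limma), and no Ept1 array came near an Ept6 array. Signals in Ept2 were 45.8, 36.2 and 62.9, and in Ept9 86.4, 74.3 and 26.6. Ept1 therefore lay at the level of these lines, and Ept6 was the line that stood apart. In a fit of all 12 arrays, *Nif3l1* differed from the mean of Ept2 and Ept9 by 0.26 in Ept1 (adjusted p = 0.876) and by 3.42 in Ept6 (adjusted p = 0.000877). The other probe set of *Nif3l1* was also lower in Ept1, with mean signals of 402 ± 54.4 in Ept1 and 840 ± 48.1 in Ept6 (SD, n = 3 each), but its difference of −1.04 was not called (adjusted p = 0.177 with limma).

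*Fubp3*, a member of the family of single-strand nucleic acid binding proteins that bind the far upstream element of *Myc*, lies on chromosome 3, which carries the segment of Ept6. Its probe set 1393006_at had signals of 1084, 1116.4 and 1218.3 in Ept1, against 180.8, 198.8 and 164 in Ept6. *Fubp3* was 5.87-fold higher in Ept1 by this probe set (log2 difference 2.55, SE 0.12, adjusted p = 0.0156 with limma). Its signals were 820.3, 1031.6 and 953.4 in Ept2 and 1146.7, 1046.2 and 945.9 in Ept9, so that Ept6 was again the line apart, although Ept2 has a labelled segment on the same chromosome. The difference from the mean of Ept2 and Ept9 was 0.20 in Ept1 (adjusted p = 0.725) and −2.35 in Ept6 (adjusted p = 3.5e-05). A second *Fubp3* probe set ran the opposite way, with signals of 1112, 1035 and 825.5 in Ept1 and 1816, 2152 and 1735 in Ept6, which did not overlap. Its difference of −0.93 was not called (SE 0.16, adjusted p = 0.319 with limma). The probe sets of *Fubp3* thus give no common direction for the gene. *Myc* itself had signals of 900, 510.3 and 648.4 in Ept1 and 594.4, 664.9 and 594.4 in Ept6, which overlapped.

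The third called probe set, 1380365_at, has no gene in the platform annotation. Its signals were 119.6, 121 and 123.6 in Ept1, against 444.4, 432.8 and 488.8 in Ept6, a difference of −1.78 (SE 0.10, adjusted p = 0.0362 with limma). It too was at the Ept1 level in Ept2 (113.3 to 140.6) and Ept9 (82.1 to 146.3). Across all probe sets, the contrast of Ept6 with the mean of Ept2 and Ept9 called 12 (0.0387%), and that of Ept1 with the same mean called 16 (0.0515%). These contrasts share the Ept2 and Ept9 arrays and are given side by side only. With 1 array left out at a time, the difference stayed between −3.26 and −3.08 for *Nif3l1*, between 2.49 and 2.62 for *Fubp3* and between −1.81 and −1.73 for 1380365_at. The calls were lost each time (limma adjusted p of 0.129 to 0.299), except that of *Nif3l1* without Ept1 replicate 3 (adjusted p = 0.0389).

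The start regions of the 2 called genes, from RefSeq on the rat build GRCr8, are shown because they are the genes whose calls the comparison rests on. Each runs from 250 bases before to 50 bases after the annotated start, which is where capitals begin. That of *Nif3l1* is chr9:67474122-67474421 and that of *Fubp3* is chr3:35253130-35253429, both on the plus strand. The build of the arrays' design is not given in the sources used here.
Nif3l1: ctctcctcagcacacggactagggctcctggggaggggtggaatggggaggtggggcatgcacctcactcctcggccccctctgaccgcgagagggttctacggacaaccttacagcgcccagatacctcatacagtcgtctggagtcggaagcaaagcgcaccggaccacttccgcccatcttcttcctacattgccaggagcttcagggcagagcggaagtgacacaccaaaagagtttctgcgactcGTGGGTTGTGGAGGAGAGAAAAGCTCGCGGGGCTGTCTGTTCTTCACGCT
Fubp3: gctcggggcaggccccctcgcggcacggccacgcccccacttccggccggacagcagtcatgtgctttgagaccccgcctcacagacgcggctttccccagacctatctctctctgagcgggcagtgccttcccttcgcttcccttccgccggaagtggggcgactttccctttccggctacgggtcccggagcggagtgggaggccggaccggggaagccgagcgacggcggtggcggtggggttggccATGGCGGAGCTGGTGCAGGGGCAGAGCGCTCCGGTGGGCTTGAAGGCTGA
The *Fubp3* region was rich in CpG, with 29 CpG dinucleotides and 70.3% G and C, while that of *Nif3l1* had 17 CpG dinucleotides and 59.7% G and C. The palindromic estrogen response element, GGTCANNNTGACC, was found in neither, and it occurs in 9 of 33469 rat promoters of the same length (0.0269%). The E-box CACGTG, searched for the same way, was also in neither and occurs in 6.42% of promoters. The shorter motif GGTCA, on either strand, occurs once in the *Nif3l1* region and not in that of *Fubp3*, and 40.5% of all promoters hold it. It overlaps the estrogen response element, of which it is one arm. Of the 59 genes named by rule (called genes, genes of largest difference, genes of smallest p on chromosomes 6 and 3, and pituitary genes), 47 matched a promoter, and the other genes mentioned were not searched. None held the full element, 26 held GGTCA and 4 held the E-box (*Srek1ip1*, *Slc7a5*, *Max* and *Synj2bp*). A match of letters is a description and not a binding site.

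Below the threshold, *Sardh* on chromosome 3 came closest. It encodes mitochondrial sarcosine dehydrogenase. Its signals were 310.2, 353.8 and 333.9 in Ept1, against 1262.4, 1311 and 1105.1 in Ept6, a difference of −1.83 (SE 0.12, adjusted p = 0.0536 with limma). The second *Sardh* probe set had 78.3, 110.2 and 16 in Ept1 and 228.5, 289.8 and 412.8 in Ept6, again without overlap. Ept2 (474.4 to 508.8) and Ept9 (424.2 to 539.4) lay between them and nearer to Ept1. *Sardh* differed from the mean of those lines by 1.30 in Ept6 (adjusted p = 0.00104) and by −0.53 in Ept1 (adjusted p = 0.176).

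**Figure D2:**
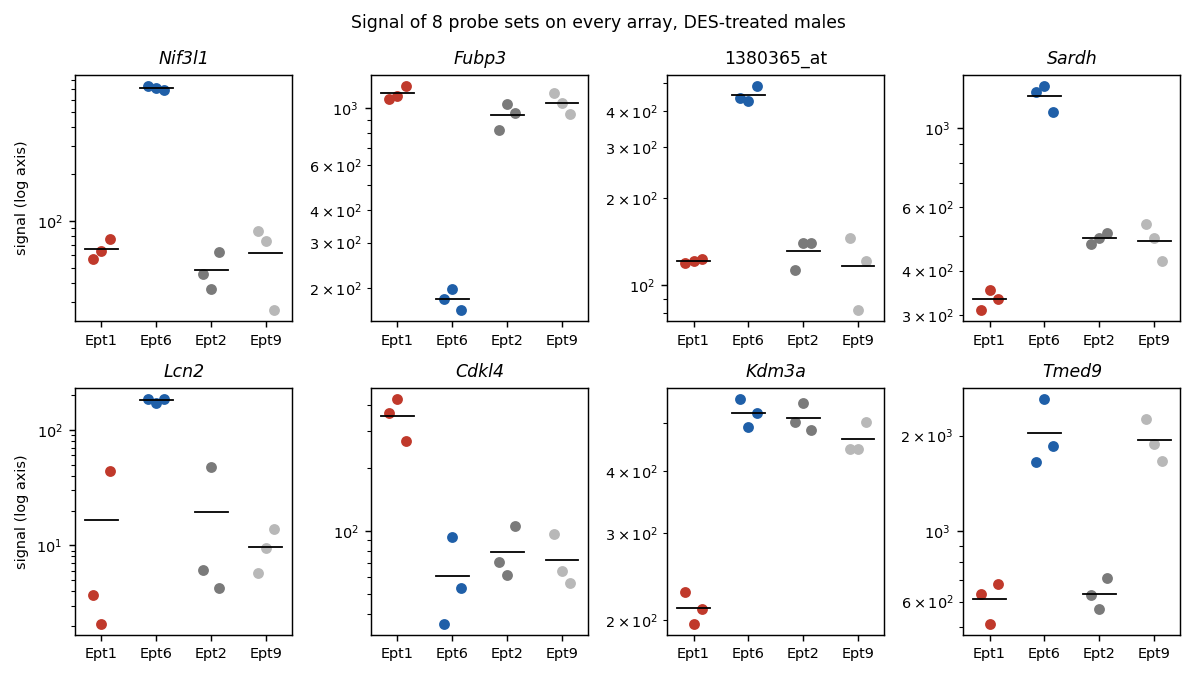
Signal (log axis) of 8 probe sets on each of 12 arrays, with Ept1 and Ept6 followed by Ept2 and Ept9; points are arrays and bars are line means. Ept6 stands apart for *Nif3l1*, *Fubp3*, 1380365_at, *Sardh* and *Lcn2*, Ept1 for *Cdkl4* and *Kdm3a*, and *Tmed9* separates Ept1 and Ept2 from Ept6 and Ept9.

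To describe the comparison further, the genes of largest difference were taken from 192 probe sets with an unadjusted p under 0.01, no overlap and a mean signal of at least 100 in the higher line, of which 60 were higher and 132 lower in Ept1. With the called genes they make 15 genes per direction. Apart from *Nif3l1* and *Fubp3* none was called on the 6 arrays, and their values are a description of genes chosen for their difference. In the fit of all 12 arrays, *Sardh*, *Kdm3a*, *Tmed9* and *Cdkl4* were also called for Ept1 against Ept6 (limma adjusted p of 0.0004 to 0.038). That fit holds the same Ept1 and Ept6 arrays and is not a separate check of these differences. The arrays of Ept2 and Ept9 were not used in the choice, and they show which line each gene resembled. The midpoints and contrasts they are set against do use the Ept1 and Ept6 arrays of the choice, so the sides are a description only. For 7 of the 30 genes the means of both other lines lay on the Ept1 side of the midpoint between Ept1 and Ept6, and for 6 on the Ept6 side. These sides are those of line means, and single arrays could fall on the other side, as for *Cnfn* (27.7 on an Ept2 array and 26.3 on an Ept9 array, 17.8 to 28.1 in Ept6) and *Atosb* (136.9 on an Ept9 array, 121.2 to 141 in Ept1). For 13, Ept2 lay with Ept1 and Ept9 with Ept6, and for 4 it was the other way round. Among all 192 probe sets these counts were 51, 26, 96 and 19, and over all 17144 probe sets of that signal they were 6245, 4755, 3564 and 2580. The labels give Ept1 and Ept2 nothing in common that Ept6 and Ept9 lack, and the division was not tested. The 3′ minus 5′ log2 signal of the *Gapdh* controls was 0.25 to 0.26 in Ept1 and 0.31 to 0.42 in Ept2. It was 0.09 to 0.20 in Ept6 and 0.17 to 0.28 in Ept9, so that Ept1 and Ept9 overlapped. The beta-actin controls also overlapped between the sides (1.589 to 1.785 in Ept1, 1.486 to 1.72 in Ept6). So did the hexokinase controls (0.64 to 1.403 in Ept1, 0.8438 to 1.004 in Ept6). The part of RNA quality in this division was not tested.

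**Figure D3:**
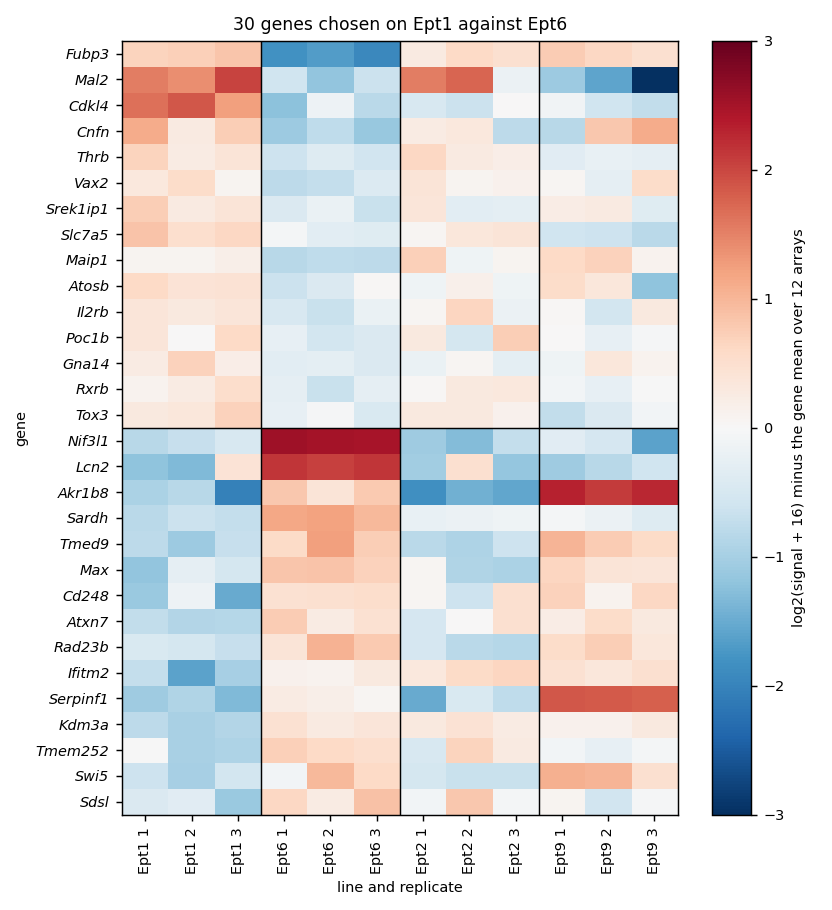
Log2(signal + 16) of 30 genes minus each gene's mean over 12 arrays, with arrays in columns by line and replicate and genes in rows, those higher in Ept1 above the line and those lower below it. The genes were chosen on Ept1 against Ept6, so that contrast is built in, and the Ept2 and Ept9 columns show which of both lines each gene resembles.

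The genes whose Ept2 and Ept9 means lay on the Ept1 side included *Lcn2* on chromosome 3, which encodes a lipocalin that binds bacterial siderophores and is made by neutrophils and inflamed epithelium. Its signals were 3.7, 2.1 and 44 in Ept1, against 184.9, 170.7 and 183.8 in Ept6, a difference of −2.82 (SE 0.47, adjusted p = 0.315 with limma). No array of Ept2 or Ept9 exceeded 47.6. One Ept1 array carried most of the spread, and without Ept1 replicate 3 the *Lcn2* difference was −3.37 and was called (adjusted p = 0.0389). *Maip1*, a mitochondrial protease-interacting protein on chromosome 9, had 346.2, 345.8 and 373 in Ept1 and 177.9, 185.7 and 184.8 in Ept6, while Ept2 and Ept9 ran from 296.3 to 545.9. The dim genes *Cnfn* and *Vax2* were also lowest in Ept6 by their means.

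Where those means lay on the Ept6 side, the gene on the segment chromosome of Ept1 was *Cdkl4*, which encodes a kinase related to the cyclin-dependent kinases. Its signals were 368.1, 427.5 and 269.5 in Ept1, against 35.9, 93.6 and 53.2 in Ept6, a difference of 2.32 (SE 0.32, adjusted p = 0.205 with limma). All Ept2 and Ept9 arrays lay between 56.2 and 105.7. In the fit of 12 arrays *Cdkl4* was 2.02 higher in Ept1 than the mean of Ept2 and Ept9 (adjusted p = 0.0386), and the second *Cdkl4* probe set differed between Ept1 and Ept6 by 2.04 with no overlap. *Kdm3a*, a histone H3 lysine demethylase encoded on chromosome 4, had 228.4, 197.2 and 210.8 in Ept1 and 558, 491.1 and 523.5 in Ept6. The difference was −1.24 (SE 0.11, adjusted p = 0.135 with limma). Ept2 and Ept9 ran from 443.2 to 548.9, and *Kdm3a* differed from their mean by −1.14 in Ept1 (adjusted p = 0.0032 in the 12-array fit). *Ifitm2*, an interferon-induced membrane protein gene, had 1344.9, 721.9 and 1111.5 in Ept1, against 2437.8, 2413.7 and 2730.7 in Ept6, and differed from the mean of Ept2 and Ept9 by −1.57 in Ept1 (adjusted p = 0.0263). *Atxn7*, which encodes a subunit of the SAGA coactivator complex, was below Ept6 in every Ept1 array with both of its probe sets (differences −1.30 and −0.30).

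The genes that divided Ept1 and Ept2 from Ept6 and Ept9 included both well expressed and dim ones. *Tmed9*, a cargo receptor of the early secretory pathway, had 635, 512 and 682.1 in Ept1 and 1646.9, 2604.8 and 1857.6 in Ept6, a difference of −1.70 (SE 0.21, adjusted p = 0.166 with limma). Ept2 had 570.2 to 710.7 and Ept9 1660.6 to 2254.2, so that the 6 arrays on each side did not overlap. *Rad23b*, a nucleotide excision repair gene, had 126.2 to 153.5 in Ept1 and 288.3 to 457.1 in Ept6, with Ept2 (112 to 147.2) and Ept9 (275 to 369.5) divided the same way. *Thrb*, the gene of thyroid hormone receptor beta, had 1032.9, 761.9 and 844.8 in Ept1, against 408.2, 488.5 and 425.8 in Ept6, with Ept2 at 733.4 to 983.7 and Ept9 at 502.1 to 549.2. *Slc7a5*, a large neutral amino acid transporter gene, had 755.2, 589.2 and 636.2 in Ept1 and 395, 325 and 316.1 in Ept6, and was lowest in Ept9 (228.7 to 263.7). *Serpinf1*, the gene of pigment epithelium-derived factor, lies on chromosome 10, which carries the segment of Ept9. It had 1432, 1600.6 and 1192.7 in Ept1, against 3550.3, 3417.4 and 3129.6 in Ept6, and reached 10453.6 to 10917.3 in Ept9. *Akr1b8*, an aldo-keto reductase gene, had 50.3 to 135.6 in Ept1 and 335.4 to 456.4 in Ept6, and 1131.2 to 1322.4 in Ept9. The remaining genes higher in Ept1 in this set (*Mal2*, *Il2rb*, *Poc1b*, *Rxrb*, *Tox3*) had differences of 0.68 to 2.47. In the reverse division, with Ept9 on the Ept1 side, *Srek1ip1* and *Gna14* differed by 0.90 and 0.72 and *Tmem252* and *Sdsl* by −1.24 and −1.20.

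Probe sets of the same gene did not always give the same difference. Of the 30 genes, 16 had another probe set, and these 19 other probe sets had the same sign in 13 and the opposite sign in 6. *Mal2*, which acts in transcytosis, differed by 2.47 with one probe set (367 to 578 in Ept1, 47.6 to 80.2 in Ept6) and by −0.05 with a far brighter one (mean signals of 5000 in Ept1 and 5158 in Ept6). The dim *Max* probe set, for the partner of MYC on chromosome 6, had 58.8, 124.8 and 101.5 in Ept1 and 288.8, 291.5 and 259.4 in Ept6, while the other differed by 0.02 at means of 3769 in Ept1 and 3732 in Ept6. For *Tmed9* the brighter probe set differed by −0.18, for *Rad23b* by −0.11, and for *Thrb* the 2 brightest by 0.17 and −0.02. Directions given here for a gene therefore hold for the probe set whose values are given.

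On chromosome 6, which carries the Ept1 segment, no gene was called by limma. Of its 871 probe sets, 59 (6.77%) had an unadjusted p under 0.05, against 6.22% of all probe sets, and 15 (1.72%) had one under 0.01, against 1.58% of the 20813 probe sets with a chromosome. The lines did not overlap in 14.2% of them, against 11.7% overall. Beside *Cdkl4*, the genes of smallest p that were higher in Ept1 were *Tshr*, *Qpct*, *Synj2bp* and *Rsad2*. *Tshr*, the thyrotropin receptor gene, was dim, with 30.2, 23.5 and 36.4 in Ept1 and 8.5, 10.1 and 11.4 in Ept6, while Ept2 and Ept9 stayed between 3.9 and 10.2. *Tshr* was 1.01 higher in Ept1 than the mean of Ept2 and Ept9 on the log2 scale (adjusted p = 0.0386 in the 12-array fit). *Qpct*, a glutaminyl cyclase gene, had 79.5 to 117.9 in Ept1 and 10.6 to 38.2 in Ept6. *Rsad2*, an interferon-induced antiviral gene, had 538.3 to 572.5 in Ept1 and 345.8 to 401.9 in Ept6. The *Synj2bp* difference of 1.48 came from a probe set under 60 in every array, and its 3 other probe sets differed by −0.14 to 0.05.

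The chromosome 6 genes of smallest p that were lower in Ept1 were *Max*, *Spast*, *Pnn*, *Spdya* and *Cyria*. *Spast*, which encodes the microtubule-severing enzyme spastin, had 1012.9, 1057.7 and 1010.2 in Ept1, against 1426.6, 1585.2 and 1540.1 in Ept6, a difference of −0.55 (SE 0.10, adjusted p = 0.354 with limma). Ept2 and Ept9 lay at the Ept6 level (1435.1 to 1551), and the second *Spast* probe set was also lower in all Ept1 arrays, by −0.37. *Pnn*, which encodes the splicing-associated protein pinin, had 523.6 to 706.1 in Ept1 and 891.1 to 1010.4 in Ept6, a difference of −0.64. Its other probe sets differed by −0.39 to −0.14, and all but that at −0.39 overlapped. Both *Spdya* (2.9 to 6.2 in Ept1, 11.8 to 28.7 in Ept6) and *Cyria* (61.1 to 103.1 in Ept1, 129.5 to 162.6 in Ept6) were dim.

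On chromosome 3, which carries the Ept6 segment, *Fubp3* was the only called gene. Of 1568 probe sets there, 29 (1.85%) had an unadjusted p under 0.01 and the lines did not overlap in 11.8%, both near the values over all chromosomes. The other genes of smallest p with higher values in Ept1 were *Lcn1*, *Smtnl1*, *Cdc25b* and *Trib3*, with differences of 0.48 to 0.94. Of these, *Cdc25b*, a phosphatase gene of the cell cycle, had 354.1 to 373.8 in Ept1 and 236.4 to 276.6 in Ept6. Beside *Sardh*, those with lower values were *Col9a3*, *Entpd8*, *Fbxw2* and *Mapk8ip1*. *Mapk8ip1*, the JNK scaffold gene, had 1124.2, 1062.6 and 1235.4 in Ept1, against 1845.3, 2131.8 and 1843.2 in Ept6. The F-box gene *Fbxw2* had 549.5, 512.1 and 593.1 in Ept1 and 849.5, 972.2 and 947.9 in Ept6. With these probe sets Ept2 lay with Ept1 and Ept9 with Ept6 for both genes. A brighter *Mapk8ip1* probe set overlapped and differed by −0.09 (mean signals of 3940 in Ept1 and 4213 in Ept6). For *Fbxw2* a brighter probe set differed by −0.31 without overlap, and the dim ones overlapped. *Col9a3* and *Entpd8* stayed under 10 in Ept1 and between 33.3 and 62.5 in Ept6.

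The positions of genes with an unadjusted p under 0.01 were described along the chromosomes, with no test of their spacing, by windows found after looking at the values. Each gene was given by its probe set of smallest p. Genes of a mean signal of 100 or more in the higher line were placed in order. Only chromosomes 3, 6 and 9 were described in this way, so the windows have no comparison with other chromosomes. On chromosome 3, 14 of 765 genes (1.83%) had an unadjusted p under 0.01, and the median window of 30 neighbouring genes held 0 of them. The fullest window held 6 (*Ptpa*, *Tor1b*, *Fubp3*, *Swi5*, *Dnm1* and *Lcn2*), 5 of them lower in Ept1. *Lcn2* is among them only through its level in Ept6. *Tor1b*, which encodes a torsin ATPase, had 868.9, 811.7 and 931.2 in Ept1 and 1173.5, 1217.3 and 1307.1 in Ept6, with all Ept2 and Ept9 arrays between 872 and 933.6. *Dnm1*, the dynamin 1 gene of endocytosis, had 378.2 to 426.9 in Ept1 and 518.9 to 549 in Ept6, with Ept2 and Ept9 from 286.1 to 433.3. For *Swi5* (730.7 to 1005.7 in Ept1, 1390.9 to 2903.1 in Ept6) and *Ptpa* (344.2 to 389.1 in Ept1, 511.6 to 575.6 in Ept6), Ept9 was at the Ept6 level and Ept2 near Ept1. The run thus holds genes with Ept9 near Ept1 beside genes with Ept9 at the Ept6 level. On chromosome 6, 9 of 449 genes (2.0%) had such a p. The fullest window held 2 of them (*Epas1* and *Cdkl4*) and the median window 1.

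On chromosome 9, 11 of 394 genes (2.79%) had an unadjusted p under 0.01, and the median window held 0 of them. The fullest window held 7, 3 of them lower in Ept1, among them *Nif3l1*. *Gtf3c3*, a transcription factor IIIC subunit gene, had 818.3, 815.5 and 898.3 in Ept1 and 529.1, 593.9 and 640.4 in Ept6, against 658.4 to 904.4 in Ept2 and Ept9. *Coq10b*, which encodes a coenzyme Q binding protein, had 2926.6 to 3256.6 in Ept1 and 2009.2 to 2302.5 in Ept6, against 2647.3 to 3473.5 in Ept2 and Ept9. *Nabp1*, a single-stranded DNA binding protein gene, had 239.6 to 288.7 in Ept1 and 154.8 to 175.5 in Ept6. *Ppil3*, a neighbour of *Nif3l1* in this order, had 651.7 to 859.9 in Ept1 and 1121.5 to 1478.8 in Ept6. *Slc40a1*, the iron exporter ferroportin, had 546.4 to 728.6 in Ept1 and 1053.5 to 1166.7 in Ept6, and 1499.6 to 2733.7 in Ept9. The window was found by looking at these values, none but *Nif3l1* was called, and the labels place no segment on this chromosome.

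**Figure D4:**
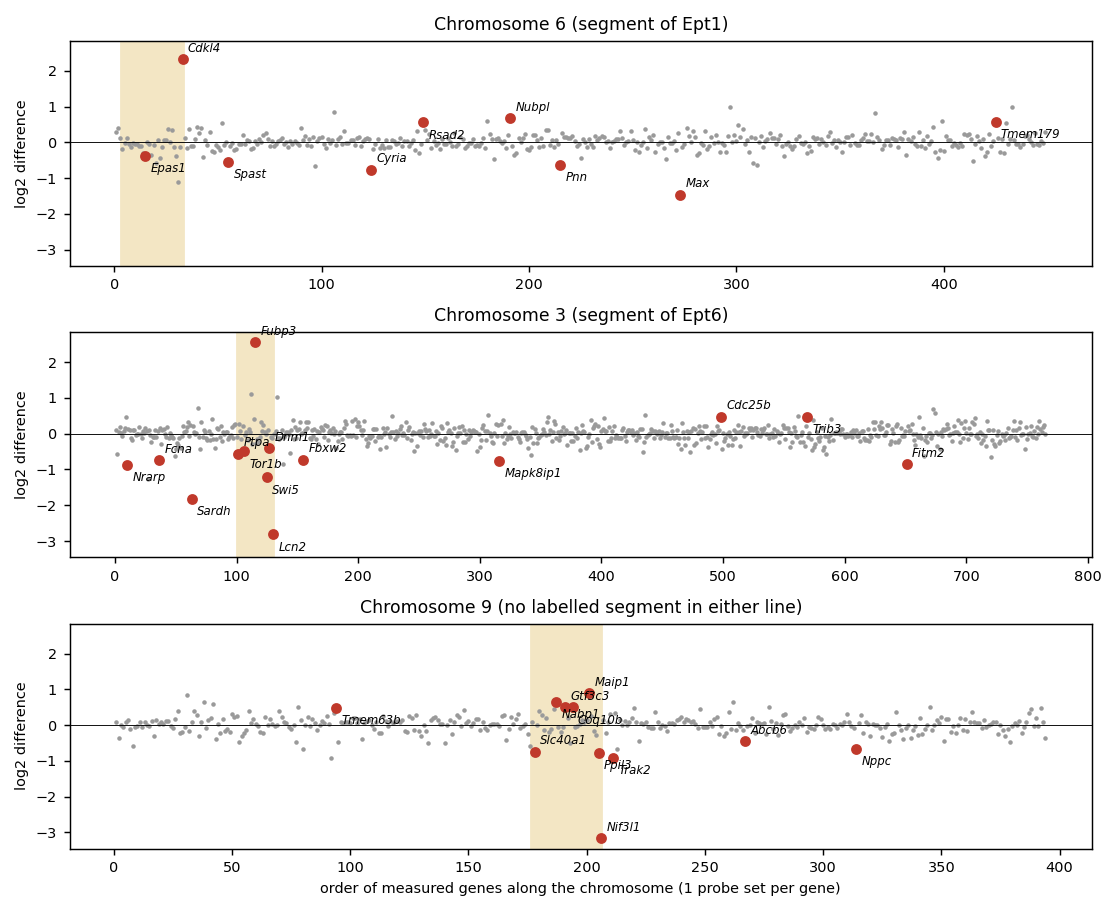
Log2 difference, Ept1 minus Ept6, of genes with a mean signal of 100 or more in the higher line, in order along chromosomes 6, 3 and 9, with 1 probe set per gene. Red points with names have an unadjusted p under 0.01, and the shaded band is the window of 30 genes with the most of them (2, 6 and 7 genes).

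The hormone genes that define the tissue were not called. *Prl*, which encodes prolactin, had 41979.1, 44765.8 and 45512.8 in Ept1 and 43842.7, 43060.8 and 42834.5 in Ept6, a difference of 0.03 with a 95% interval of −0.22 to 0.27. *Prl* and *Gal*, the galanin gene, stood at the very top of the signal range on these arrays, with *Gh1* and *Cga* just below (percentile 99.9 of all probe sets for both). Whether signals there were saturated was not tested, and the intervals of these genes set no limit on a difference in transcript. *Gh1*, the growth hormone gene, differed by 0.09 (−0.21 to 0.39), and *Cga*, the common subunit gene of the glycoprotein hormones, by 0.15 (−0.14 to 0.45). *Tshb*, the thyrotropin subunit gene, had 7084.2, 6093.9 and 9660 in Ept1 and 4554.3, 6526.4 and 5860.1 in Ept6, which overlapped. *Lhb* and *Fshb*, the gonadotropin subunit genes, differed by 0.04 (−0.40 to 0.47) and −0.02 (−0.996 to 0.96). *Pomc*, the corticotropin precursor gene, was dim for this tissue, with 100.8, 151.9 and 93.8 in Ept1 and 120.6, 84.2 and 11.5 in Ept6, so corticotrophs could not be checked by it.

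Among regulators of lactotrophs, *Pou1f1*, the pituitary transcription factor, differed by 0.00 (95% interval −0.27 to 0.27). *Drd2*, the dopamine receptor through which dopamine inhibits prolactin release, had 4461.1, 4674.4 and 4543.3 in Ept1 and 4675.9, 5513.3 and 4956.8 in Ept6, a difference of −0.14 (−0.42 to 0.13) without overlap. The estrogen-inducible *Gal* was 0.03 apart (−0.21 to 0.28), again at the top of the signal range. *Mki67*, a proliferation marker, differed by 0.02 (−0.33 to 0.36), and *Esr1*, the estrogen receptor alpha gene, was dim (27.4 to 54.5 in Ept1, 39.7 to 77.1 in Ept6).

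Of 307 measured genes in 24 lists of cell types and pathways, limma called none. At an unadjusted p under 0.05 there were 20 (6.51%), against 5.19% of all 14216 genes with the brightest probe set each. Ept1 lay above Ept6 in 8.14% of the listed genes and below it in 5.86%, against 6.27% and 5.42% of all genes. The lists were chosen with earlier results of these data known, so these shares are a description only. List medians ran from −0.13 (stroma) to 0.34 (thyrotroph, 3 genes), where the median of all genes was 0.01. Among 33 cell cycle genes the median was 0.02, with 17 positive and 16 negative differences. Without overlap, Ept1 lay above Ept6 in 3 of them (*Mcm7*, *Bub1* and *Cdkn2c*, by 0.12 to 0.30) and below it in 1. The gene below was *Ccnd2*, the cyclin D2 gene and the brightest of those without overlap. It had 6268.8, 5415.1 and 6030.5 in Ept1 and 8107.1, 8996 and 7999.5 in Ept6 (difference −0.50, SE 0.12, adjusted p = 0.483 with limma). The 20 estrogen response genes had a median of 0.06 and none without overlap.

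In the list of oxidant response and iron genes, 14 of 19 differences were negative, with a median of −0.07, where that of all genes was 0.01. As its members were chosen with earlier results of these data known, these counts are a description only. *Hmox1*, the heme oxygenase gene, had 740.3, 345.1 and 254.3 in Ept1 and 1000.2, 839.3 and 1203.1 in Ept6 (difference −1.28, SE 0.40, adjusted p = 0.668 with limma). With *Slc40a1* and *Akr1b8*, which was already chosen for its difference, it made up the 3 members in which Ept1 lay below Ept6. In *Gclm* and *Sod1* Ept1 lay above, by 0.12 and 0.08. The other members overlapped, among them *Nqo1* (0.35), *Srxn1* (−0.01) and *Txnrd1* (−0.06). Of all genes, 5.42% lay below and 6.27% above. Of 17 hormone granule genes 12 differences were positive, all of them small. *Chgb*, *Scg2*, *Scg3* and *Cpe* lay above Ept6 in all Ept1 arrays by 0.05 to 0.10, and *Pam*, a peptide amidating enzyme gene, lay below by −0.08, none of them called. Standard errors of these differences were 0.09 to 0.10, and of all genes 6.27% lay above and 5.42% below. Among 10 housekeeping genes *Rplp0* also lay above, by 0.08, and none lay below. Whether signals this bright were saturated was not tested. Of 18 measured immediate early genes, 2 lay below Ept6 and 2 above it, where the shares of all genes were 5.42% and 6.27%. Those below were *Ier2* (405.9 to 527.2 in Ept1, 672.4 to 880.7 in Ept6) and *Jun* (827 to 966.3 in Ept1, 1044.9 to 1222.4 in Ept6). Those above were *Egr1* (2885.8 to 3153.3 in Ept1, 2425.1 to 2744.1 in Ept6) and the dim *Egr2* (30.1 to 43 in Ept1, 2.9 to 24.9 in Ept6). The other members overlapped, among them *Fos* (0.10), *Junb* (−0.17) and *Nr4a1* (−0.28).

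**Figure D5:**
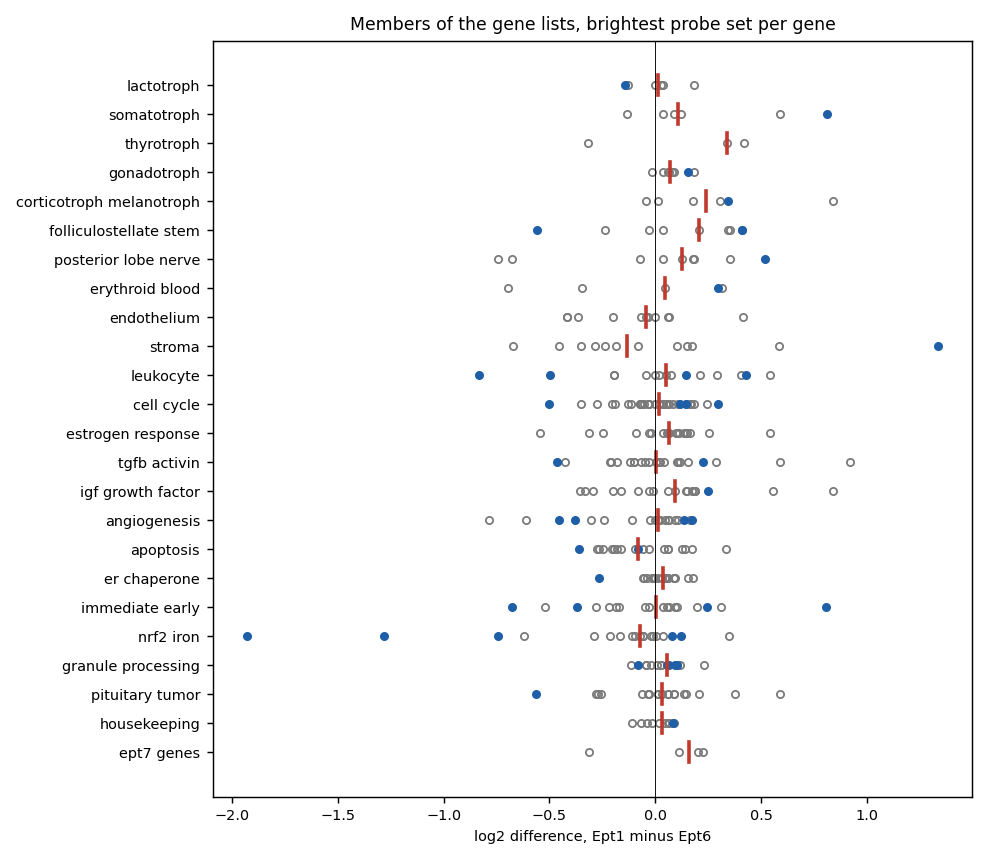
Log2 difference, Ept1 minus Ept6, of each measured member of 24 gene lists (1 point per gene), with the median of a list as a red bar. Filled points are members whose 3 Ept1 arrays do not overlap with the 3 Ept6 arrays, medians run from −0.13 to 0.34, and no member was called.

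Markers of cells other than the hormone cells were described by their signals, with no test of detection. Some were dim in both lines, such as *Cd79b* (mean signals of 11.1 in Ept1 and 14.4 in Ept6). All 11 measured endothelium genes overlapped. The summed signal of 5 erythroid genes was 15771.5 to 17715.4 in Ept1 and 13399.6 to 14630.6 in Ept6, almost all of it *Hbb*, a beta-globin gene (15282.3 to 17138.5 in Ept1, 12898.2 to 14034.8 in Ept6). That of 15 leukocyte genes was 21775.2 to 23158.9 in Ept1 and 18127.5 to 22630.8 in Ept6. Here *Lyz2*, a macrophage lysozyme gene, was above Ept6 (2866.7, 2715.8 and 2542.5 in Ept1, 1898.6, 1977.9 and 2140.3 in Ept6), as was *C1qa*, a complement gene of macrophages (4970.1 to 5332.2 in Ept1, 4445.4 to 4901.3 in Ept6). *Cd163* (97.2 to 139.8 in Ept1, 149.6 to 200.7 in Ept6) and *Cd3e* (32.3 to 38.5 in Ept1, 46.4 to 102.6 in Ept6) lay below. All other leukocyte genes overlapped, among them *C1qb* (0.07), *C1qc* (0.05), *Cd68* (−0.20) and *Mrc1* (−0.19). Of all genes, 6.27% lay above and 5.42% below. Of 12 stroma genes, *Pdgfra* alone did not overlap and was dim (54.2 to 68.9 in Ept1, 10.8 to 19.5 in Ept6). Of 9 measured folliculostellate and stem cell genes, *Sox2* lay above Ept6 (278.9 to 302.2 in Ept1, 195.2 to 240.3 in Ept6) and *Cdh1* below. Of 9 posterior lobe and nerve genes only *Nefl* did not overlap (377.5 to 482.5 in Ept1, 234.5 to 336.9 in Ept6). None of these markers was called, and their part in the values of other genes was not tested.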

How the data were processed

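Total RNA of anterior pituitary was hybridised to 1-colour oligonucleotide arrays, 1 array per sample and 3 per line. The deposited intensity values are linear signals of 31099 probe sets, which the authors had scaled to a trimmed mean (2% off each end) of 500 on each array. Software and background correction: not given in the sources used here. Arrays give no depth, and their number limits the precision.

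From these intensities log2(signal + 16) was computed without further scaling. The 57 control probe sets were left out. Ept1 and Ept6 were compared on their 6 arrays with limma 3.58.1 in R 4.3.3 (lmFit and eBayes), with Benjamini-Hochberg adjustment over all 31042 probe sets and a threshold of 0.05. A fit of all 12 arrays set each line against the mean of Ept2 and Ept9. Single array measures were tested with exact permutation tests. The limma step was tested on simulated data. In the platform annotation 20826 probe sets had 1 gene symbol, 436 had several and 9780 had none. Chromosomes and gene order came from RefSeq on GRCr8.

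Named genes were called genes, filled to 15 per direction by size of difference (unadjusted p under 0.01, no overlap, signal of 100 or more), the 5 of smallest p per direction on chromosomes 6 and 3, and 13 pituitary genes. Genes outside this rule (members of lists and neighbours in windows) were named after their values were seen. The members, lists and rules were chosen with earlier results of these data known. For the lists 1 probe set per gene, the brightest, was used. The alternatives tried were 17: other pseudocounts, scalings, filters, variance models, a replicate block, and leaving out each array.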

Additional observations from a re-analysis of the deposited data

How the results depend on the processing

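The number of calls depended on the model of the spread, while directions of the called probe sets did not. This holds for the called *Fubp3* probe set and not for the gene, whose second probe set ran the opposite way. *Nif3l1*, *Fubp3* and 1380365_at had the same sign in 17 of 17 alternatives, and they were called in 10, 9 and 9 of them. All 3 remained called with quantile normalization (3 calls), median centring (3), array weights (3), a pseudocount of 1 (4) or 64 (5), filters on dim probe sets at the 40th percentile (10 of 18626 tested) and the 60th (35 of 12417), limma's intensity trend (57, 8 higher and 49 lower in Ept1) and a fit of all 12 arrays (16). An ordinary two-sample test gave 0 calls, with 1915 probe sets at an unadjusted p under 0.05. Leaving out 1 array at a time gave 0 to 2 calls: 0 without any one Ept6 array, 0 without Ept1 replicate 1 or 2, and 2 (*Nif3l1* and *Lcn2*) without Ept1 replicate 3, with 1857 to 2188 at an unadjusted p under 0.05. The cause was not tested beyond the loss of an array.

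Called genes on chromosome 6 numbered 0 without and 1 with the 60th percentile filter, 2 with the trend and 1 with all 12 arrays. On chromosome 3 they numbered 1, and 2 with a pseudocount of 64, 2 with the 40th and 4 with the 60th percentile filter, 6 with the trend, 2 with all 12 arrays, 0 with the ordinary test and 0 to 1 when 1 array was left out. With the replicate block there were 0 calls, 0 on chromosome 3, and 1957 probe sets at an unadjusted p under 0.05. Deviations of same-numbered Ept1 and Ept6 arrays correlated at 0.01 in each of the 3 pairs, so the numbers were not taken as pairing the samples.

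Of 981 alternative values of named genes, 904 kept their direction and side of the threshold, 23 were no longer called, 38 became called and 16 changed sign, none of these 16 called. They were *Prl* with quantile normalization (−0.024), *Pou1f1* with quantile normalization (−0.017) and array weights (−0.0029), *Fshb* with median centring (0.010), and values with 1 array left out, which ran from −0.079 to 0.20 for *Lhb*, from −0.36 to 0.28 for *Fshb*, from −0.064 to 0.055 for *Pou1f1*, from −0.098 to 0.30 for *Myc* and from −0.073 to 0.096 for *Mki67*. Of 432 alternative list medians, 46 moved by more than the spread between arrays. The median standard error was 0.14 at mean signals of 100 or more and 0.20 over all probe sets, so differences of dim genes are the least certain.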
